A study of Mus musculus with 20 samples.

Results

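Chromatin accessibility was examined at the Hox genes of the mouse, 38 genes in 4 clusters, by the assay for transposase-accessible chromatin with sequencing (ATAC-seq), in which a transposase inserts adapters into open DNA. The members were taken by name, 10 in cluster A, 10 in cluster B, 9 in cluster C and 9 in cluster D, out of 21938 protein-coding genes. A gene was counted as having a promoter peak when a deposited peak overlapped the 2 kb on either side of any of its annotated start sites. Peaks were also followed across each whole cluster with 10 kb on each side, where merging them over all libraries gave 203 regions out of 335858 in the genome.

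Hox genes encode homeodomain transcription factors that give cells their place along the head-to-tail axis. Within a cluster they lie in the order in which they act, so that low-numbered genes at the 3′ end pattern anterior parts of the embryo and high-numbered genes at the 5′ end pattern posterior parts and the limbs. In embryonic stem cells the clusters are held silent by Polycomb complexes while their CpG-rich promoters stay accessible, and fibroblasts keep the Hox pattern of the body site they came from. The clusters open from the 3′ end during development, and retinoic acid and Cdx factors are among the regulators that act on them.

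The 20 libraries were 1 of mouse embryonic fibroblasts (MEF), 3 of embryonic stem cells (ESC) and 16 of fibroblasts under reprogramming. The MEFs, from E13.5 embryos, and the ESCs, kept in N2B27 with 2iL, carried the OG2 transgene, a green fluorescent protein under Oct4 control, and reprogramming cells received retroviral Oct4 with native Nanog or with NanogN70, a Nanog carrying at its N-terminus the part of SS18 that binds the remodeller BRG1. Each path had 1 library on each of 8 days from 0 to 12, where day 0 followed 2 rounds of infection, and the medium changed from iCD3 to N2B27 with 2iL during the course, so medium and day cannot be told apart. The labels place the ESC libraries by title, while their cell type field reads as fibroblast. Nothing gives a separate culture for each ESC library, so their spread may be technical. The days of a path are successive samples and not biological replicates. Tests across days below use them as replicates, so their p-values do not measure the spread between cultures.

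The libraries differed in depth. They held 44126 to 125467 peaks, and the median pileup, the height of the read stack at a peak's summit, was 16 to 60 over 14217 regions open in every library. Pileups below are scaled, each divided by its library's median over those regions and multiplied by the mean of the medians, 29.7, unless called deposited pileups. The NanogN70 day 3 library stood apart: promoters of 8 of 8 T lymphocyte markers and 5 of 5 markers of other leukocytes had a peak there, against 1 to 4 and 1 to 3 in the other time course libraries. Fibroblast markers had peaks at 10 of 10 promoters in MEF and 7 of 10 in each ESC library, and ESC markers at 5 of 10 and 10 of 10. Time course libraries had peaks at 5 to 10 fibroblast markers, with 7 on Nanog day 12 and 8 on NanogN70 day 12. ESC markers had 3 to 9, with 4 and 9 on those days. Files hold peaks and not reads, so an absent peak says only that none was called at that depth, and fewer cells with an open site and less access per cell cannot be told apart.

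4 stretches of DNA are shown first, since results below turn on them. At Hoxb1, the most anterior gene of cluster B, the peak of reprogramming cells and the peak of ESCs lay in different places. The RefSeq promoter of Hoxb1 (GRCm38.p6, chr11:96365508-96365807, plus strand, start site base in capitals) was open in reprogramming, and a window further upstream (chr11:96363794-96363993, plus strand, summit base in capitals) was open in ESC only, its summit 1858 bp from the nearest start site. The other 2 lie in cluster D at Hoxd3 and in cluster C between Hoxc13 and Hoxc12.
Hoxb1 promoter: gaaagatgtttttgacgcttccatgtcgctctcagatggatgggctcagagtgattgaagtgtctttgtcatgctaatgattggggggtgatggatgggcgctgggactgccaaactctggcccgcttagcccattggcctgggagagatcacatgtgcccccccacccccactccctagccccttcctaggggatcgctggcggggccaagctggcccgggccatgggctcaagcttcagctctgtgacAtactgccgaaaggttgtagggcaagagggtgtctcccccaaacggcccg
Hoxb1 upstream window: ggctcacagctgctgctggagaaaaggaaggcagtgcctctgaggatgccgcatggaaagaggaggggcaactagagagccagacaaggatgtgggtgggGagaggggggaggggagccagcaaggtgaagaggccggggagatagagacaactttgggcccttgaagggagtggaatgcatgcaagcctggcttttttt
Hoxd3 intron window (chr2:74733383-74733582, plus strand, summit base and the SOX match ACAATG in capitals): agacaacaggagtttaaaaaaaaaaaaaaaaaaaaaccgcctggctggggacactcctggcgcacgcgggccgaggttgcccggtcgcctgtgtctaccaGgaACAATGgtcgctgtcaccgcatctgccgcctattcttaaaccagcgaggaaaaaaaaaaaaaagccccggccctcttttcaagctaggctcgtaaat
Hoxc12 upstream window (chr15:102931832-102932031, plus strand, summit base in capitals): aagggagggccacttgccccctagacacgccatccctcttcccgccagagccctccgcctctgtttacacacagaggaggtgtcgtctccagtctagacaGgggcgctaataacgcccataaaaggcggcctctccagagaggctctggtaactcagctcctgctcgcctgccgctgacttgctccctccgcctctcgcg

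Most Hox promoters were open in both end points. MEF had a peak at 35 of 38 Hox genes, against 70.3% of all protein-coding genes, and the ESC libraries at 34, 35 and 36, against 72.3%, 72.8% and 71.1%. In all, 32 of the 38 were open in MEF and in every ESC library, as were 65.4% of all genes. Hoxa6 had no peak in any library, and 16 genes had one in all 20, against 53.8% of all genes: Hoxa3, Hoxa4, Hoxa5, Hoxa7, Hoxa9, Hoxa10, Hoxb4, Hoxb7, Hoxb9, Hoxc4, Hoxc5, Hoxc6, Hoxc10, Hoxc13, Hoxd9 and Hoxd10. Of these 16, 4 are anterior (paralog groups 1 to 4), 5 central (5 to 8) and 7 posterior (9 to 13). Windows of 9 members overlapped that of another, as in Hoxd3 with Hoxd4 and Hoxc5 with Hoxc10, so these do not count independently.

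Fewer Hox promoters were open during reprogramming. Cells with Nanog had a peak at 26 genes on day 0, 25 on day 1, 24 on day 3, 30 on day 5, 31 on day 7, 33 on day 8, 30 on day 10 and 32 on day 12. Over all genes the shares on those days were 61.1%, 61.9%, 63.5%, 66.4%, 67.6%, 66.9%, 63.4% and 63.6%. Cells with NanogN70 had 28, 25, 31, 31, 33, 28, 29 and 31 on the same days, against 65.5%, 61.9%, 67.4%, 66.2%, 68.4%, 64.6%, 63.7% and 65.9% of all genes. Every time course library lay below MEF and the 3 ESC libraries in its number of open Hox genes, and also in its share of all genes. The paths differed by 0.625 ± 3.42 genes (NanogN70 minus Nanog, SD over 8 days), with more in NanogN70 on 4 days, fewer on 3 and the same number on 1. A two-sided exact sign-flip permutation test over the 8 days, added after the values were seen, gave p = 0.66, not adjusted. The widest gap, 31 against 24 on day 3, involved the library with leukocyte marker peaks, and without day 3 the mean difference was -0.286 genes.

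**Figure D1:**
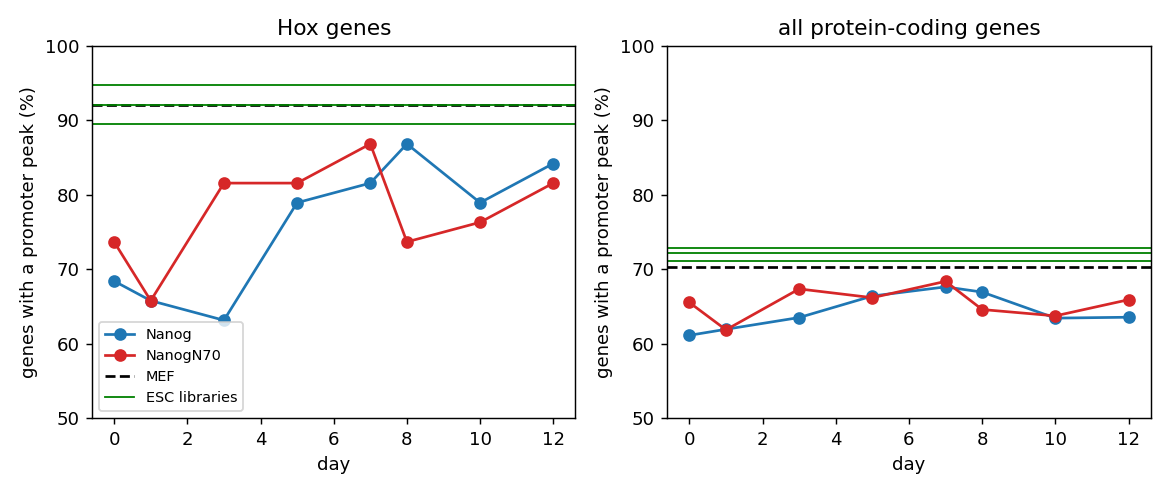
Share of genes with a promoter peak (%) by day, for the Hox genes on the left and all protein-coding genes on the right, with Nanog in blue, NanogN70 in red, MEF as a dashed line and each ESC library as a green line. Both paths lie below MEF and ESC on every day, and each point is 1 library.

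The 2 end points differed at few Hox promoters by presence and at more by height. Hoxa11, a posterior limb gene, was the 1 gene open in MEF and in no ESC library, a class that held 2.83% of all genes. Its scaled pileup was 5.3 in MEF, and with Nanog it had a peak on days 1, 5, 7 and 8 (14.8, 12.7, 6.3 and 5.6) but with NanogN70 on day 3 alone (5.4). That NanogN70 peak came from the library with leukocyte marker peaks and lay in another region. At the site of the MEF and Nanog peaks (chr6:52245301-52246066) no NanogN70 day had a peak. Hoxa13 and Hoxb1 were open in at least 2 ESC libraries and not in MEF, a class of 5.45% of all genes. Hoxa13, the most posterior gene of cluster A, stood at 20.4, 9.4 and 12.3 in ESC and had a peak on 5 Nanog days and 6 NanogN70 days. With peaks of score 100 or more these classes held 4 and 9 Hox genes, against 3.12% and 5.72% of all genes. With a single MEF library, none of these differences could be tested.

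By height, Hoxc6, a gene of the trunk, was the furthest above ESC in MEF. It measured 27.4 in MEF and 12.99, 7.0 and 8.2 in ESC. With Nanog it measured 33.4, 57.5, 45.2, 29.7, 37.5, 34.3, 33.6 and 33.4 from day 0 to day 12, and with NanogN70 33.4, 33.4, 17.8, 41.3, 34.4, 22.8, 25.5 and 22.5. All 16 time course values therefore lay above all 3 ESC values. Hoxb6, Hoxa5 and Hoxa2 followed, at 14.5, 26.7 and 10.7 in MEF against ESC means of 2.4 ± 4.1, 15.8 ± 5.0 and 4.8 ± 4.3 (SD, n = 3). For Hoxb6 the values came from different sites, the MEF peak lying at a start site (chr11:96298848-96299396) where no ESC library had one. Another region at the edge of its window (chr11:96294134-96294894) was open in all 20 libraries and went the other way, at 9.1 in MEF and a mean of 19.9 in ESC.

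Hoxc13, the most posterior gene of cluster C and one that acts in hair and nails, was the furthest above MEF in ESC. It measured 15.2 in MEF and 56.6, 49.2 and 49.2 in ESC. With Nanog it measured 14.8, 20.4, 28.4, 37.1, 42.2, 25.1, 28.4 and 19.8 over the days, and with NanogN70 18.6, 25.99, 8.9, 42.6, 46.1, 28.6, 22.3 and 26.1. Both paths were highest on day 7, and neither reached the lowest ESC value. Hoxa13, Hoxd13 and Hoxb1 came next, at no peak, 5.3 and no peak in MEF against ESC means of 14.03 ± 5.7, 16.7 ± 3.2 and 10.2 ± 0.041 (SD, n = 3).

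**Figure D2:**
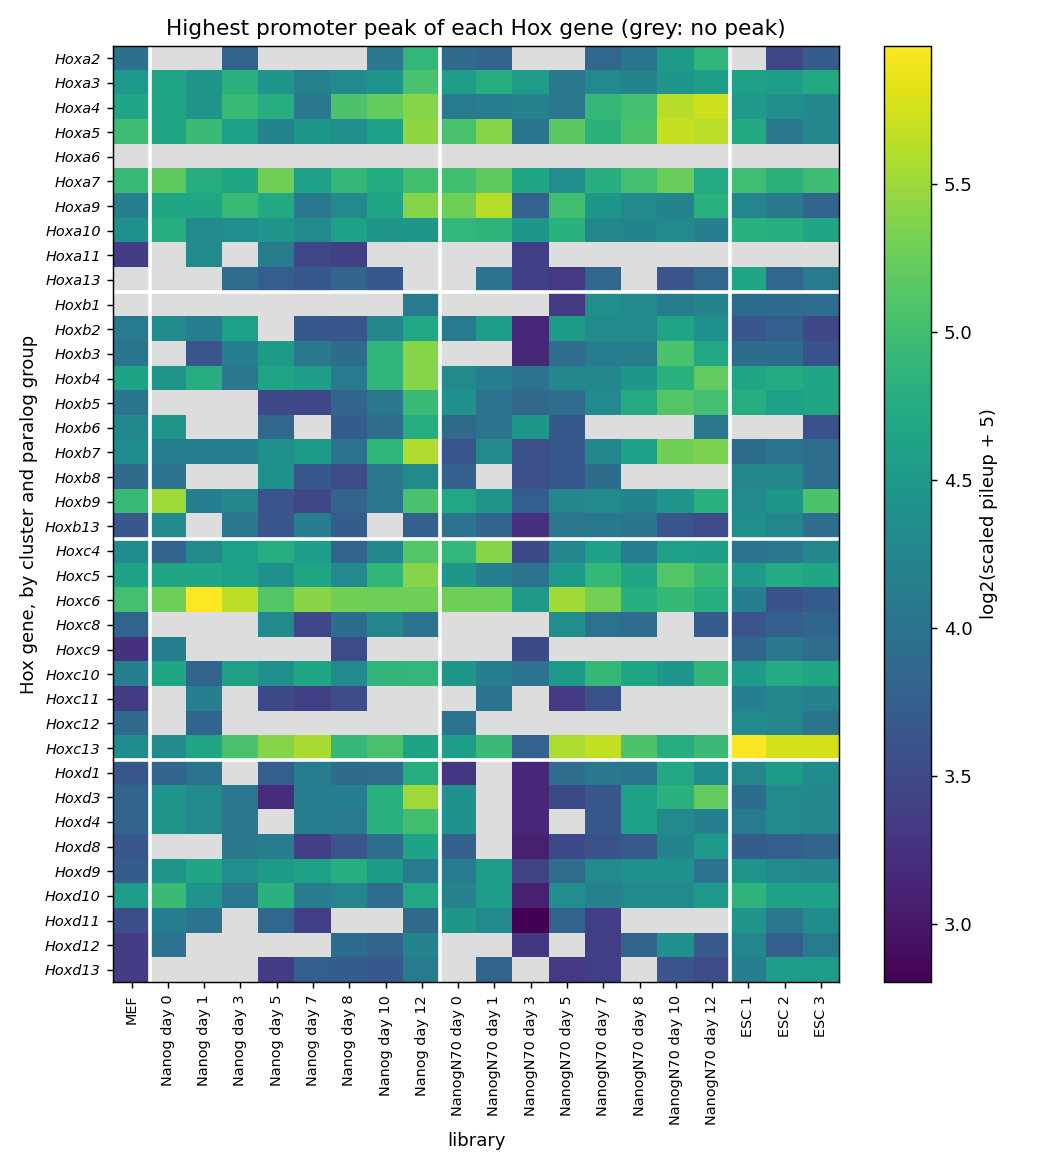
Highest promoter peak of each of the 38 Hox genes (rows, by cluster and paralog group) in each of the 20 libraries (columns), as log2 of the scaled pileup plus 5, with grey for no peak. Hoxa6 is grey throughout, Hoxc13 is brightest in ESC and Hoxc6 is bright in MEF and the time course, and the NanogN70 day 3 column is dark for cluster D.

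Whether the paths differed was asked per gene with limma on log2(scaled pileup + 5), with day as a factor, over 16686 genes with a peak in at least 1 time course library, 37 of them Hox genes. No Hox gene passed an adjusted p of 0.05 in either direction, against 0.126% of all genes higher and 0.168% lower with NanogN70, while 3 Hox genes were higher and 3 lower at an unadjusted p under 0.05, against 9.27% and 7.68% of all genes. The median effect was -0.08 over Hox genes and 0.03 over all genes. By presence, 8 Hox genes had a peak on more days of the NanogN70 path and 8 on more of the Nanog path, where the shares of all genes were 11.8% and 6.55%. On more NanogN70 days were Hoxa2, Hoxa13, Hoxb1, Hoxb2, Hoxb5, Hoxb13, Hoxd8 and Hoxd12, and on more Nanog days Hoxa11, Hoxb3, Hoxb8, Hoxc8, Hoxc9, Hoxc11, Hoxd3 and Hoxd4.

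Hoxb5, a central gene active in neural crest and lung, came nearest to the threshold. With Nanog it had no peak on days 0, 1 and 3 and then measured 6.4, 6.3, 9.3, 11.6 and 25.99. With NanogN70 it measured 16.1, 11.1, 9.4, 10.3, 14.8, 21.7, 29.7 and 27.5, against 11.4 in MEF and 22.3, 19.5 and 20.5 in ESC. NanogN70 was thus higher on 8 of 8 days, by 1.07 ± 0.22 on the log2 scale (SE; limma adjusted p = 0.055). An exact sign-flip permutation test over the 8 days, two-sided, gave p = 0.0078. That is the smallest that 8 days allow and was not adjusted for the 38 genes examined. The 8 days are successive libraries and not replicate cultures. Hoxd9, singled out after the values were seen, was lower with NanogN70 on 8 of 8 days, by -0.36 ± 0.15 (SE; limma adjusted p = 0.25). The sign-flip permutation test gave p = 0.0078 for Hoxd9 as well, not adjusted. With a peak required in at least 4 of the 16 libraries, or with the library's lowest pileup in place of 0, Hoxb5 passed the limma threshold.

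Hoxb1, expressed in rhombomere 4 of the hindbrain, had its peak on 5 NanogN70 days and 1 Nanog day. It had no peak in MEF and none with NanogN70 on days 0, 1 and 3, then measured 5.2, 15.6, 14.8, 12.7 and 13.8 on days 5 to 12. With Nanog it was without a peak until day 12, when it measured 12.4. The limma effect was 0.87 ± 0.28 (SE; adjusted p = 0.16).

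The window hid a shift in place. The region over the Hoxb1 start site (chr11:96365467-96365872, first exon and upstream) had deposited pileups of 4, 20, 13, 12 and 19 on NanogN70 days 5 to 12 and 10 on Nanog day 12, and in ESC 6 in 1 library and none in the other 2. The region upstream (chr11:96363749-96364017, outside annotated genes) had 11, 13 and 9 in ESC and no peak in MEF or on any day. Another, inside the gene (chr11:96366698-96366936), had 8, 7 and 10 in ESC and likewise none elsewhere. Late reprogramming cells and ESCs were therefore both counted as open at Hoxb1 from mostly separate sites.

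Promoter heights changed with day at a handful of Hox genes. Those tested were 11 anterior, 10 central and 16 posterior genes. In these groups 1, 1 and 1 passed with Nanog and 4, 1 and 1 with NanogN70. In a limma fit of a slope in each path, 3 Hox genes rose with Nanog and 0 fell, against 1.65% and 1.03% of all genes. With NanogN70 5 rose and 1 fell, against 4.65% and 3.58%. Hoxb5 rose by 0.22 ± 0.03 log2 units per day with Nanog (SE; limma adjusted p = 0.0061), Hoxb3 by 0.18 ± 0.04 (adjusted p = 0.024) and Hoxd13 by 0.17 ± 0.04 (adjusted p = 0.047). With NanogN70 Hoxb3 rose by 0.23 ± 0.04 (adjusted p = 0.0024), Hoxb1 by 0.20 ± 0.04 (adjusted p = 0.0094), Hoxd1 by 0.15 ± 0.05 (adjusted p = 0.04), Hoxa4 by 0.15 ± 0.03 (adjusted p = 0.0051) and Hoxb7 by 0.14 ± 0.03 (adjusted p = 0.022), all by limma. The 1 that fell was Hoxd11, at -0.18 ± 0.05 per day (limma adjusted p = 0.042). Without day 12 no Nanog slope and 2 NanogN70 slopes passed, those of Hoxb1 and Hoxb3, where 0.132% and 2.60% of all genes passed. Without days 0 and 1 the numbers were 0 and 6, against 0.0244% and 3.90% of all genes, and Hoxa2, Hoxa5 and Hoxd3 took the place of Hoxb1, Hoxd1 and Hoxd11. Without the NanogN70 day 3 library 4 and 6 passed, against 5.34% and 11.1% of all genes, where 2.68% and 8.23% passed with it.

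Hoxb3, which patterns the hindbrain and neck, had a peak with Nanog from day 1, at 7.4, 12.9, 18.0, 11.7, 10.2, 24.5 and 37.1, and with NanogN70 from day 3, at 4.0, 10.3, 12.5, 12.6, 28.6 and 21.01. MEF stood at 11.4 and ESC at 10.2, 10.2 and 7.2. Day 12 was above both end points in either path. The ESC values came from another site in the window, and the region of the MEF and time course peaks (chr11:96340648-96341327, over an exon of Hoxb3) had no peak in ESC.

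Hoxa4, a gene of the neck vertebrae, measured 12.4, 12.99, 13.4, 11.6, 25.01, 27.4, 44.6 and 47.8 with NanogN70 and 20.4, 16.7, 25.8, 22.3, 11.7, 28.8, 32.3 and 37.1 with Nanog. MEF was at 20.6 and ESC at 17.6, 15.6 and 14.3. From day 8 every value of both paths was above those of MEF and ESC. Hoxb7, a trunk gene, measured 7.4, 14.8, 6.9, 7.7, 14.1, 19.4, 33.9 and 35.5 with NanogN70 and ended at 43.3 with Nanog, against 15.2 in MEF and 10.2, 10.9 and 10.2 in ESC. Its highest peak was not at the same site in every library: on NanogN70 days 0, 1 and 3, on Nanog day 5 and in 2 ESC libraries it lay in regions other than that of MEF.

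Hoxd1, the most anterior gene of cluster D, measured 5.0 on day 0 with NanogN70, had no peak on day 1, and then measured 4.0, 10.3, 11.7, 11.4, 21.2 and 15.2, so that its last 2 values sat near the ESC values of 13.9, 18.0 and 15.4. Hoxd13, a limb gene at the other end, had no peak with Nanog on days 0, 1 and 3 and then measured 5.3, 8.6, 8.4, 7.7 and 12.4, below the ESC values of 12.99, 18.8 and 18.4 on each day. Hoxd11, its neighbour in the limb, measured 17.3, 14.8, 2.0, 9.0 and 5.5 on NanogN70 days 0 to 7 and had no peak on days 8, 10 and 12. Its low value on day 3 came from the library that stood apart, and without that library the 6 NanogN70 calls were the same. Its highest peak also changed site, lying in one region on days 0 and 1 and in another on days 3, 5 and 7.

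**Figure D3:**
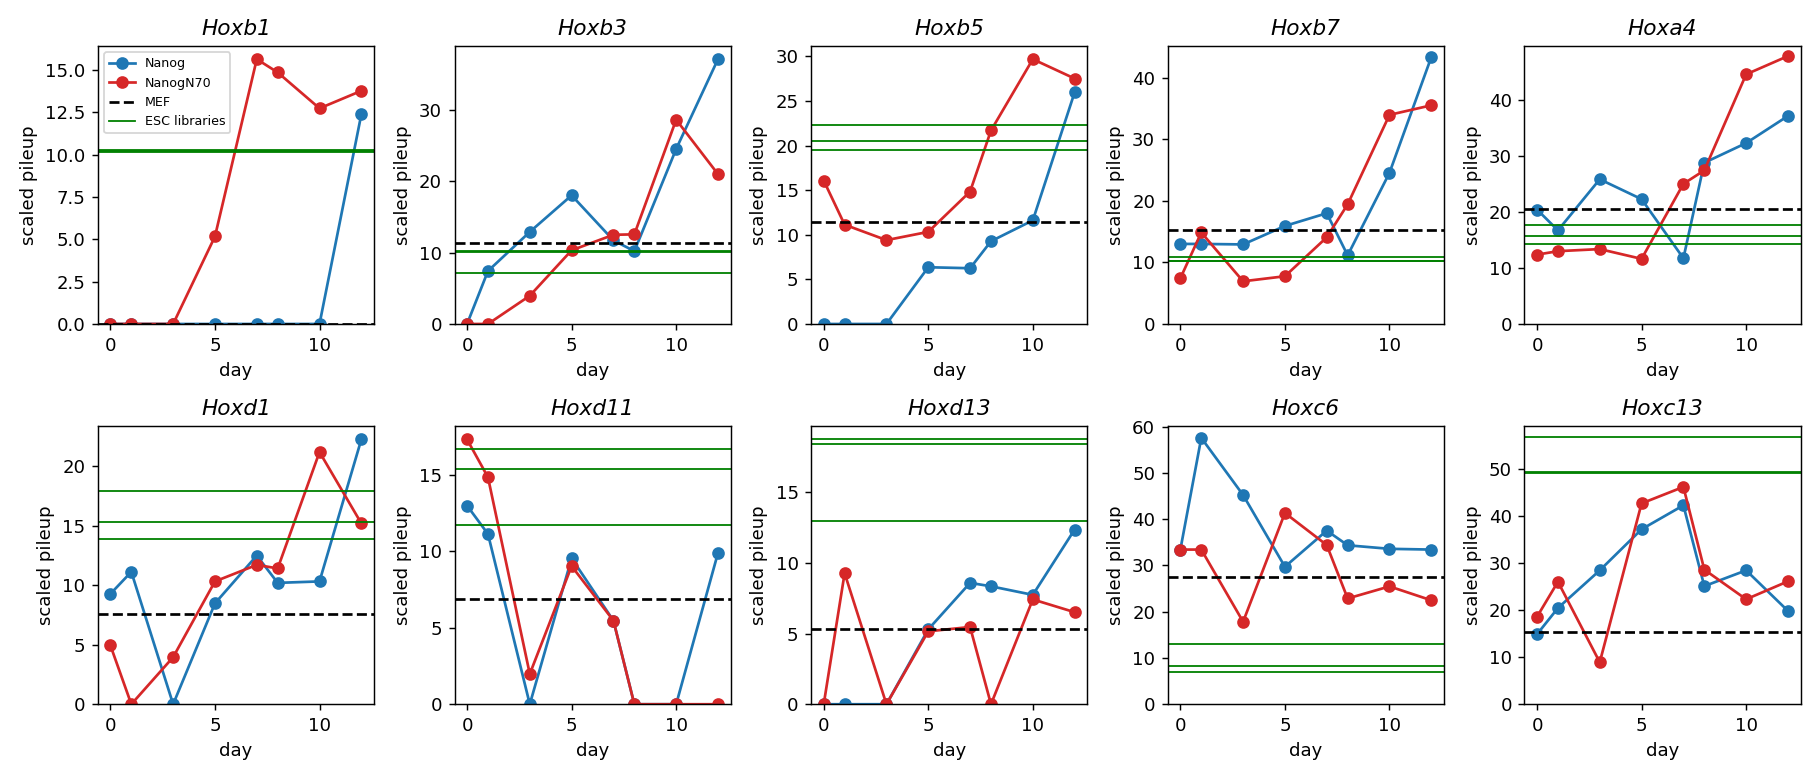
Scaled pileup of the highest promoter peak by day for 10 Hox genes, with Nanog in blue, NanogN70 in red, MEF dashed and each ESC library as a green line; each point is 1 library and 0 means no peak. Hoxb3, Hoxb7 and Hoxa4 end above MEF and ESC in both paths, Hoxb1 appears by day 5 in the NanogN70 path but at day 12 in the other, and Hoxd11 has no peak on the last 3 days with NanogN70.

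With Nanog the slope was above 0 at 11 of 11 anterior, 8 of 10 central and 6 of 16 posterior genes tested, with medians of 0.06, 0.09 and -0.02 log2 units per day. With NanogN70 the counts were 9 of 11, 6 of 10 and 8 of 16, with medians of 0.12, 0.06 and -0.0021. The median over all genes was 0.0020 with Nanog and 0.0045 with NanogN70, and over the 37 Hox genes 0.04 in both. With Nanog the median scaled pileup of anterior genes was 14.85, 14.85, 11.6, 8.5, 12.5, 10.2, 16.8 and 28.5 from day 0 to day 12. It thus lay below its day 0 value from day 3 to day 8 and was highest on day 12. With NanogN70 it was 12.4, 9.3, 4.0, 10.3, 14.1, 14.85, 20.2 and 18.8. The slopes of the paths were also compared with each other, and no gene of the 16686 passed in limma, 0% in either direction; of the Hox genes, 1 was positive and 3 negative at an unadjusted p under 0.05, against 1.97% and 1.95% of all genes. A slope called in one path only is therefore not shown to differ from that in the other.

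**Figure D4:**
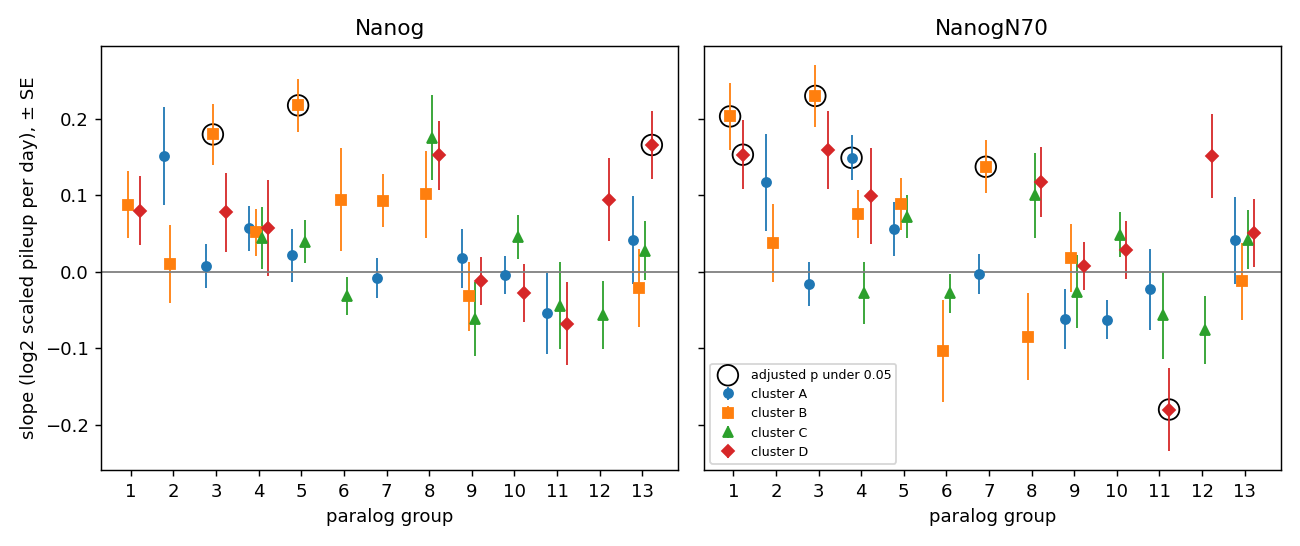
Slope of log2(scaled pileup + 5) per day, with SE bars, against paralog group for the 37 Hox genes tested, Nanog on the left and NanogN70 on the right; symbols mark the clusters and circles an adjusted p under 0.05 in limma. With Nanog every slope in paralog groups 1 to 5 is above 0, and with NanogN70 Hoxd11 is the circled point below 0.

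By day 12 part of the Hox promoters stood above both end points. This comparison was chosen after the values were seen, and with 1 library per day it has no test. On NanogN70 day 12, 31 Hox genes had a peak. Of these, 8 were over 1.5 times the highest of MEF and the 3 ESC libraries, Hoxa2, Hoxa4, Hoxa5, Hoxa9, Hoxb3, Hoxb7, Hoxd3 and Hoxd8. Of all genes with a peak in that library, 10.5% were. With Nanog there were 13, against 7.83%. Both paths shared 7, which is 18.4% of all Hox genes, against 3.52% of all protein-coding genes. These shares of genes high in both paths count genes with and without a peak. Of the 13, 8 were anterior, 4 central and 1 posterior, and of the 8, 4, 3 and 1. The highest peak in a window need not be at one site: of the 13, 7 had their day 12 peak in the same region as their highest end point, and of the 8, 7. At the region of the highest end point, 9 of the 13 and 7 of the 8 were still over 1.5 times. At Hoxd3 the 40.8 with Nanog and 31.9 with NanogN70 on day 12 came from the intron region shown above, which had no peak in MEF or ESC. The end points were read from a region shared with Hoxd4 (chr2:74711630-74712430), at 9.1 in MEF and 10.2, 14.8 and 14.3 in ESC, where day 12 stood at 27.2 with Nanog and 13.04 with NanogN70, the latter below the highest ESC value.

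In MEF peaks covered 6.98% of the 4 clusters with their flanks and in ESC 5.99%, 7.14% and 5.42%. With Nanog the share was 2.56%, 2.53%, 2.93%, 4.40%, 4.65%, 4.06%, 4.21% and 7.05% from day 0 to day 12. With NanogN70 it was 4.78%, 3.26%, 4.67%, 3.25%, 5.44%, 3.78%, 5.89% and 7.85%, so that days 1, 3, 5 and 8 lay below day 0 and day 12 was the highest of each path. Over the whole genome the share was lower on day 12 than on day 0, going from 0.691% to 0.599% with Nanog and from 1.159% to 0.779% with NanogN70, with 1.49% in MEF and 1.06% to 1.32% in ESC. The clusters were thus 11.8 times as covered as the genome on Nanog day 12 and 10.1 times on NanogN70 day 12, against 4.70 times in MEF and 5.06 to 5.42 times in ESC. Peaks of the clusters averaged 437 and 472 bp on those days, against 369 bp in MEF and 284 to 357 bp in ESC, while all peaks of the same libraries averaged 334 and 391 bp, 323 bp and 296 to 309 bp. Peaks of the clusters numbered 91 and 94 on day 12, against 107 in MEF and 108 to 113 in ESC. From day 0 to day 12 their number was 53, 51, 57, 82, 88, 77, 73 and 91 with Nanog and 80, 66, 80, 70, 95, 74, 85 and 94 with NanogN70. The paths differed by 0.818 ± 1.11 percentage points (NanogN70 minus Nanog, SD over 8 days), with NanogN70 higher on 6 of 8 days (two-sided exact sign-flip permutation p = 0.078, not adjusted). The share of the genome differed by 0.127 ± 0.290 points, with NanogN70 higher on 4 of 8 days (exact permutation p = 0.30). Both tests were added after the values were seen.

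With 10 kb on each side, cluster A (chr6:52152417-52270880) was covered to 12.6% in MEF, 7.24%, 9.71% and 5.99% in ESC, 10.5% on Nanog day 12 and 14.4% on NanogN70 day 12. Cluster D (chr2:74658310-74775142) was covered to 4.33% in MEF, 5.60%, 6.54% and 5.30% in ESC, and 6.86% and 7.26% on day 12. Cluster B (chr11:96184316-96378256) reached 6.18% and 5.98% on day 12, against 5.60% in MEF and 4.88% to 5.9998% in ESC. Cluster C (chr15:102911103-103046852) ended at 5.42% and 5.27%, from 2.60% and 6.21% on day 0, below MEF at 6.33% and each ESC library at 5.82% to 7.03%.

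**Figure D5:**
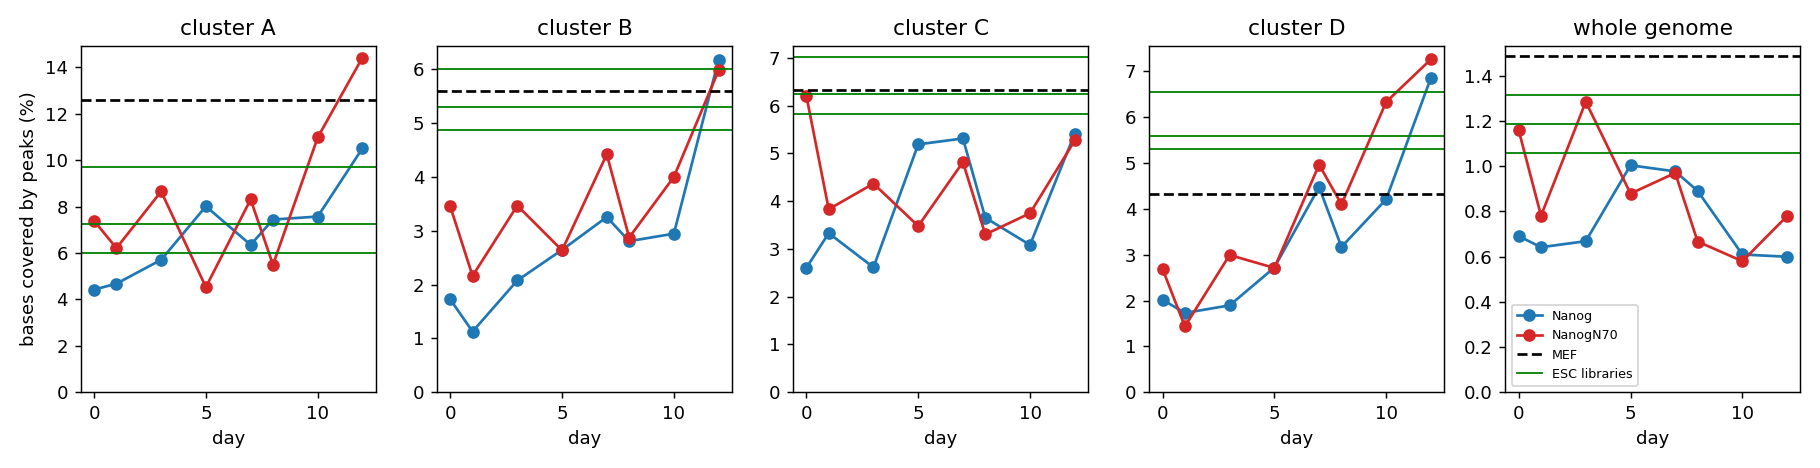
Bases covered by peaks (%) by day in each Hox cluster with 10 kb flanks and, on the right, in the whole genome, with Nanog in blue, NanogN70 in red, MEF dashed and each ESC library as a green line; each point is 1 library and the vertical scales differ. Clusters A, B and D are higher on day 12 than on day 0 in both paths, and the genome is lower.

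Of the 203 regions, 17 were open in all 20 libraries, 33 in MEF and no ESC library, 25 in all 3 ESC libraries and not in MEF, and 56 in neither MEF nor ESC. Over the 335858 regions of the genome these classes held 4.23%, 22.2%, 10.9% and 38.7%, and over the clusters 8.37%, 16.3%, 12.3% and 27.6%. The tallest on NanogN70 day 12 lay in cluster A between Hoxa2 and the main promoter of Hoxa3 (chr6:52172060-52173131), over annotated exons of Hoxa3 and of Gm15050. Its deposited pileup was 45 in MEF, 38, 47 and 37 in ESC, 60 on Nanog day 12 and 115 on NanogN70 day 12, and scaled it was 34.3, a mean of 36.6, 74.3 and 83.3. Both day 12 values were above MEF and ESC there. The region was picked for its height on NanogN70 day 12, so that height is no further support.

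At Hoxd3, which patterns the upper neck, the intron region shown above (chr2:74733239-74733766) was open in neither end point. It had deposited pileups of 33 on Nanog day 12 and 8, 22 and 44 on NanogN70 days 8, 10 and 12, and no peak in any other library. Another region 4040 bp upstream of Hoxb13 and outside annotated genes (chr11:96189928-96190625) was tall in ESC, at 30, 39 and 36, absent from MEF and Nanog, and present with NanogN70 on days 10 and 12 alone, at 9 and 12. The region 4933 bp upstream of Hoxc12 (chr15:102931512-102932137) was also tall in ESC, at 38, 52 and 28, and elsewhere had 6 on NanogN70 day 7 only. Of the 25 regions open in ESC and not MEF, 4 were open on Nanog day 12 and 6 on NanogN70 day 12, against 7.24% and 18.6% of all such regions. Of the 33 open in MEF and no ESC library, 10 and 11 were open, against 6.52% and 4.17%. These shares are over regions of the whole genome, while 122 of the 203 cluster regions lay within 2 kb of a Hox start site.
Hoxb13 upstream window (GRCm38.p6, chr11:96190260-96190459, plus strand, summit base in capitals): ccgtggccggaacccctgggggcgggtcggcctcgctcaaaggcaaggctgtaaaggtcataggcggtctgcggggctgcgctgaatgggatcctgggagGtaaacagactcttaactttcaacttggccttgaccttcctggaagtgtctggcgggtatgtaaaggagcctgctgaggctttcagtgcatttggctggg

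Of the regions open in MEF and in no ESC library, 1 was taken per cluster by its MEF height: one over a Hoxa3 start site (chr6:52212679-52213598, 23 in MEF), one 1325 bp upstream of Hoxb9 (chr11:96269925-96270339, 19), one at a Hoxc6 start site (chr15:102997872-102998326, 19) and one 4558 bp upstream of Hoxd13 (chr2:74663630-74663874, 19). On day 12 the Hoxa3 region had 19 with Nanog and 16 with NanogN70 and the Hoxc6 region 18 and 21, while those near Hoxb9 and Hoxd13 had no peak in either path. Other regions of this class stood equally high, at 19 in MEF, near Hoxa2 (chr6:52160598-52161465), Hoxa3 (chr6:52185140-52185617) and Hoxb6 (chr11:96298848-96299396), with 25, 10 and 11 on Nanog day 12 and 22, 16 and 16 on NanogN70 day 12.

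RefSeq promoters of 300 bases were at hand for 22 of the 38 genes, 24 in all. Their median ratio of observed to expected CpG was 0.626, against 0.384 over 32841 promoters. Matches to TGATTNAT, a site that HOX and PBX proteins bind together, were searched on both strands and occurred in 2 Hox promoters, those of Hoxa2 and Hoxd11, and in 3.22% of all promoters. TGANTCA, the AP-1 site, occurred in 1, another Hoxd11 promoter, against 7.81%, and ATGCAAAT (OCT), ACAATG (SOX) and the CTCF core in none, against 1.74%, 12.6% and 2.43%. The 2 promoters with the HOX-PBX match are shown with it in capitals, as is the start site base.
Hoxa2 promoter (GRCm38.p6, chr6:52164782-52165081, minus strand): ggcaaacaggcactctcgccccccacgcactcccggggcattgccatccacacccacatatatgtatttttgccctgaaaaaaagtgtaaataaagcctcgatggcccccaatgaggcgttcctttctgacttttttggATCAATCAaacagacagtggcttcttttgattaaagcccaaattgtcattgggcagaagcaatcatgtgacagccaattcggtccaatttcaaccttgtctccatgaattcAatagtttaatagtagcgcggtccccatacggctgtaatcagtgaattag
Hoxd11 promoter (GRCm38.p6, chr2:74682073-74682372, plus strand): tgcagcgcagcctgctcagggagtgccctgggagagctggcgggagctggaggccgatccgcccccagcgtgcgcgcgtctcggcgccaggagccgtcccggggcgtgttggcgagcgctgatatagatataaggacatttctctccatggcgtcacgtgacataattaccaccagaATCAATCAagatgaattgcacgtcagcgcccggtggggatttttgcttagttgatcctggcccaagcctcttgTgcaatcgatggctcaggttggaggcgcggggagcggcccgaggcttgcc

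Within 100 bases of the summits, TGATTNAT occurred at 9 of 91 cluster peaks on Nanog day 12 and 7 of 94 on NanogN70 day 12, against 2.88% and 2.89% of all peaks of those libraries. In MEF it occurred at 8 of 107, against 5.22%, and in ESC at 0 of 110, 1 of 113 and 0 of 108, against 1.53%, 1.55% and 1.51%. TGANTCA occurred at 9 of 107 cluster peaks in MEF, where 27.8% of all peaks had it. A match is a description of the letters and not of binding.

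Among transcripts inside the clusters that make no protein, 13 were listed. The microRNA genes of the miR-10 family lie beside Hoxb4 and Hoxd4 and share a seed, bases 2 to 8, shown in capitals from RefSeq. Within 2 kb of the hairpin of Mir10a there was a peak in all 20 libraries, with deposited pileups of 26 in MEF, 30 and 44 on day 12 with Nanog and NanogN70, and 22, 28 and 20 in ESC, the same height as at Hoxb4 in all but 1 library. At Mir10b there was one in 7 libraries, MEF at 8, Nanog day 12 at 11, NanogN70 days 7 and 8 at 7 and 9, and ESC at 13, 14 and 11. Mir196a-1, Mir196a-2 and Hotair had none in any library.
miR-10a-5p (chr11:96317186-96317208, plus strand): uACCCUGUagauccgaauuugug
miR-10b-5p (chr2:74726074-74726096, plus strand): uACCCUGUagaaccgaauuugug

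Genes that act with or upon the clusters were read from lists as well. All 9 TALE cofactors, the Pbx, Meis and Pknox genes that bind DNA with HOX proteins, had a promoter peak in every library. So did all 12 Polycomb genes, where 53.8% of all genes did. The shares of all genes open were 70.3% in MEF, 71.1% to 72.8% in ESC and 61.1% to 68.4% in the time course. Of the 11 upstream regulators, Cdx and retinoic acid pathway genes, 8 were open in MEF, 11 in each ESC library and 7 to 9 in the time course. Of 10 of these tested with NanogN70, 4 rose with day and 1 fell in limma, where 4.65% and 3.58% of all genes did: Cdx1 by 0.15 per day (adjusted p = 0.0094), Rarb by 0.12 (adjusted p = 0.031), Cyp26a1 by 0.12 (adjusted p = 0.041), Rxrb by 0.07 (adjusted p = 0.021) and Rarg at -0.08 (adjusted p = 0.025). With Nanog 1 rose, against 1.65% of all genes, Rxrb, by 0.08 (limma adjusted p = 0.023). Of the 5 activators, Kmt2a, a histone methyltransferase that keeps Hox genes active, rose in both paths, by 0.13 and 0.11 per day (limma adjusted p = 0.0083 and 0.0047). Of 12 Polycomb genes 2 rose with NanogN70, against the same 4.65%, Suz12 by 0.06 (limma adjusted p = 0.037) and Ring1 by 0.07 (adjusted p = 0.039), and none passed with Nanog.

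Of a list of 35 other developmental regulators, most of them homeobox genes, 34 were open in MEF and 34, 34 and 35 in ESC, against 16 to 31 in the time course, where 61.1% to 68.4% of all genes were open. Of these 35, 2 rose with day in each path, against 1.65% of all genes with Nanog and 4.65% with NanogN70, En2 in both, Gbx2 with Nanog and Pax3 with NanogN70.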

How the data were processed

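ATAC-seq libraries were prepared and processed by the authors. Per the submitters' processing notes, reads were handled with Trim Galore 0.6.4, Bowtie2 2.4.5, SAMtools 1.16.1 and MACS 1.4.2 on mm10, with peaks called per library. The deposited files hold a score per peak, which MACS derives from its p-value, and the signal (pileup) at each summit. Read totals were not part of these files. Transcript starts came from GENCODE M21, and no peak on the 21 chromosomes ran past its reference length. Peaks on 14 other sequence names were not checked.

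For each of 21938 protein-coding genes the highest pileup within 2 kb of any start was scaled to depth, log2-transformed with a pseudocount of 5 and fitted with limma 3.58.1 in R 4.3.3, with Benjamini-Hochberg adjustment over the 16686 genes tested. Scripts were tested on simulated data. Members and lists were chosen with earlier results of these data known. Named genes had a peak in all 20 or the fewest libraries, the 4 largest differences in days open or between MEF and ESC in each direction, or an adjusted p under 0.05. Groups came from the sample titles. Alternatives were a 1 kb window, 1 start site, a score of at least 100, equal numbers of peaks, another scaling, pseudocount or filter, and leaving out libraries or days.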

Additional observations from a re-analysis of the deposited data

Results flagged for a closer look

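The NanogN70 day 3 library had a promoter peak at 8 of 8 T lymphocyte markers, where the other time course libraries had 1 to 4, MEF 5 and each ESC library 5, a signal outside the Hox measurements. In that library 31 Hox genes had a promoter peak. Without it 4 Hox genes had a limma slope with Nanog and 6 with NanogN70, and 0 differed between the paths, against 3, 6 and 0 with it. Over all genes the shares called were 5.34%, 11.1% and 0% without it and 2.68%, 8.23% and 0.294% with it.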

How the results depend on the processing

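The classes of 1 gene open in MEF alone and 2 in ESC alone grew to 4 and 4 with a 1 kb window, 2 and 5 with 1 start site, 4 and 9 at a score of at least 100, and 3 and 9 with equal numbers of peaks. All-gene shares were 2.83% and 5.45%, then 2.52% and 5.24%, 3.23% and 5.78%, 3.12% and 5.72%, and 2.73% and 7.57%. The first class was 1 to 2 when an ESC library was left out (2.96% to 3.21% of all genes). With equal numbers of peaks the coverage on NanogN70 day 12 exceeded the ESC mean by 4.24 percentage points, against 1.66. Hox genes with a limma slope numbered 3 for Nanog and 6 for NanogN70. For Nanog there was 1 with a pseudocount of 1, 1 scaled by the median of all peaks, 0 without scaling, 1 with the lowest pileup in place of 0, and 0 without days 0 and 1, where all-gene shares went from 2.68% to 1.95%, 0.0779%, 0.0120%, 1.163% and 0.0244%. For NanogN70 there were 3 scaled by the median of all peaks and 10 with equal numbers of peaks, where the shares went from 8.23% to 1.19% and 9.90%. Under either scaling change every NanogN70 call was a rise. Leaving out a day gave 0 to 4 and 2 to 7, against 0.132% to 4.91% and 1.91% to 10.7% of all genes. Between the paths 1 Hox gene passed with a peak in at least 4 libraries and 1 with the lowest pileup in place of 0, Hoxb5 in both (0.986% and 1.13% of all genes), which stayed short of it in 17 of 19 alternatives (limma adjusted p 0.051 to 0.17, and 0.027 and 0.034 in the 2 that passed). The causes were not tested. The median of all genes between paths was 0.03, and 0.25 without scaling or 0.12 scaled by all peaks. With Nanog Hoxd13 lost its call in 14 of 19 alternatives, Hoxb3 in 8 and Hoxb5 in 6. With NanogN70 Hoxd11 lost it in 14, Hoxd1 in 9, Hoxb7 in 4, Hoxa4 and Hoxb1 in 1 and Hoxb3 in 0. With 1 start site Hoxb3 had no peak with Nanog and a slope of 0 there (limma adjusted p = 1). The alternatives without days 0 and 1, without the NanogN70 day 3 library alone, with the lowest pileup, and those of window, start site and peak set in the limma fits, were chosen after seeing the data. Peaks absent from shallow libraries limit all comparisons.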
